A study of Mus musculus with 2 samples.

Results

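The 35 genes described here are cell cycle genes, chosen by symbol from a fixed list, and all 35 were found among the 32285 genes of the deposited count matrices. They were followed across the cell classes of 2 single-cell libraries, together with the cells that hold them. One library came from wild-type C57BL/6J mice (labelled WT) and the other from mice without CD200R1 (labelled KO), an inhibitory receptor of myeloid cells. In both groups the brains came from untreated mice of 18 months, and cells carrying CD11b, a surface protein of myeloid cells, were taken with magnetic particles. The number of mice per library and the deleted exons are not given, so the genotype was not checked by a 3′ tag, and no disease model is named for these mice although the series title names Parkinson's disease. With 1 library per group there is no replicate: every difference is between 2 libraries, no test was run, and all intervals (95%) cover counting error only. WT and KO below stand for these labels, and paired values are given in the order WT, KO. Between the libraries 103 cell barcodes were shared, 81 of them among kept cells, and 1 belonged to a mitotic-profile cell as defined below.

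A cell that divides first copies its DNA and then separates the copies in mitosis. The genes for replication, such as the helicase subunits of the MCM complex, are switched on early, and the genes for mitosis follow as cyclin B and its kinase CDK1 drive the cell into division. Microglia, the resident macrophages of the brain, renew themselves by slow local division in the adult, whereas neutrophils and most monocytes divide as precursors in the bone marrow. The members were grouped by role: 11 act in replication and nucleotide supply, 22 act mainly in G2 phase and mitosis and are called mitotic members here, and Stmn1 and Diaph3 were kept apart. Stmn1 encodes a protein that destabilizes microtubules and Diaph3 a formin of the actin cytoskeleton.

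The promoters of the members differ in part between the replication and the mitotic group, and 6 picked to show the difference are printed. Windows from 250 bases before to 50 after the start of each gene were given by RefSeq (GRCm38.p6) for 31 of the 35 members. Each line below holds the 120 bases before the start, 5′ to 3′ on the strand of the gene. Capitals mark TTTGAA (the cell cycle genes homology region, bound by complexes that hold mitotic genes silent outside division), CCAAT (the box of the factor NF-Y) and 4 forms of the E2F site (TTTCCCGC, TTTCGCGC, TTTGCCGC and TTTGGCGC), each on either strand, and overlapping matches are joined. The mitotic examples are Cdk1 (chr10:69352913-69353032, minus strand), Cdc20 (chr4:118437344-118437463, minus strand), Top2a (chr11:99024190-99024309, minus strand) and Mki67 (chr7:135716380-135716499, minus strand). The replication examples are Mcm6 (chr1:128359706-128359825, minus strand) and Hells (chr19:38930870-38930989, plus strand).
Cdk1: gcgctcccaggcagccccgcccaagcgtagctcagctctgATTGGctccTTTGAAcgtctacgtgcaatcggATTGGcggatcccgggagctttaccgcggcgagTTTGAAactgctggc
Cdc20: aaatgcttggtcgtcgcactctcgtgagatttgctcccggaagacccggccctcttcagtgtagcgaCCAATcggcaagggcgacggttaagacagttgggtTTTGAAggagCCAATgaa
Top2a: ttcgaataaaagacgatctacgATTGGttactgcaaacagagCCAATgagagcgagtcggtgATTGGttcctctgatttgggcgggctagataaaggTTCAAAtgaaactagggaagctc
Mki67: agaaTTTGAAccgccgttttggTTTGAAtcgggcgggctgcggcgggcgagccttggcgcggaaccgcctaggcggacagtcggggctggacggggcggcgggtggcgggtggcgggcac
Mcm6: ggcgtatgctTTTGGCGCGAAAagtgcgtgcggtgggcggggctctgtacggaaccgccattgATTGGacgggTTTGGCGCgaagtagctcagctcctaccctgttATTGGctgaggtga
Hells: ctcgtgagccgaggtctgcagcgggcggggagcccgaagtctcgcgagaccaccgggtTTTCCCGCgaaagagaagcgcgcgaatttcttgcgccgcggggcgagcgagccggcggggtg

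TTTGAA lay in the window of 14 of 19 mitotic members (73.7%), of 1 of 11 replication members (9.09%) and of 18.1% of all 27025 promoters. E2F sites had the opposite pattern, with 5 of 11 replication members (45.5%), 1 of 19 mitotic members (5.26%) and 2.32% of all promoters. CCAAT was frequent in both groups, in 17 of 19 mitotic members (89.5%) and 8 of 11 replication members (72.7%), against 37.9% of all promoters. The replication member with TTTGAA was Mcm2, which had no E2F site, and the mitotic member with an E2F site was Cdk1. That site begins 131 bases before the start, outside the printed line. In the printed lines Cdk1 has a TTTGAA beginning 71 bases and another 15 bases before the start, and CCAAT boxes beginning 80 and 48 bases before it. Cdc20 has a TTTGAA beginning 18 bases before the start. Mcm6 has E2F sites beginning 110, 106 and 47 bases before it and no TTTGAA. A match of letters is a description of the sequence, not a measured binding site.

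Over all kept cells (16357 WT and 16935 KO, holding 115415766 and 116041929 UMIs, the counts of captured RNA molecules) the members ranged widely in UMIs. Stmn1 (ENSMUSG00000028832, chr4:134468320-134473843 in GRCm38, plus strand) had 10667 and 8889 UMIs, or 92.4 and 76.6 CPM (UMIs of the gene per 1000000 UMIs of the same cells). CPM compares 1 gene across cells and gives no order between genes, since 3′ counts per gene are not corrected for capture. Pcna (ENSMUSG00000027342, chr2:132249162-132253314, minus strand), the sliding clamp of the replication fork, had 6587 and 5931 UMIs, or 57.1 and 51.1 CPM. Bub1, a spindle checkpoint kinase, was at 0.286 and 0.396 CPM, and Cenpa, the histone variant of the centromere, at 5.37 and 5.21 CPM. Mki67 (ENSMUSG00000031004, chr7:135689784-135716361, minus strand), the gene of the Ki-67 protein used to stain dividing cells, had 382 and 357 UMIs (3.31 and 3.08 CPM) in 96 and 90 cells. Summed over a library, fewer cells of a type and less RNA per cell cannot be told apart.

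Over all kept cells most members had a KO to WT ratio whose interval included 1, and most of the others were lower in KO. In replication, the helicase subunits Mcm2 (485 and 447 UMIs), Mcm3 (1888 and 1931), Mcm5 (460 and 396) and Mcm6 (1735 and 1646) had KO to WT ratios of CPM between 0.856 (0.747 to 0.981, Mcm5) and 1.02, and Pcna had 0.896 (0.865 to 0.928). The nucleotide enzymes Tyms, Rrm1, Rrm2 and Tk1 had ratios from 0.811 (0.659 to 0.996, Tk1) to 0.966 (0.900 to 1.04, Rrm1), and Hells, a chromatin remodeller, 0.816 (0.733 to 0.907). Thus the intervals of Pcna, Mcm5, Hells and Tk1 lay below 1, and that of Rrm1 did not. Intervals of ratios of UMIs, here and below, treat each UMI as drawn alone, although many UMIs can come from 1 cell. Among the cyclins and their kinase, Cdk1 had 344 and 351 UMIs, Ccna2, cyclin A, 88 and 86, Ccnb2, a B-type cyclin, 193 and 158, and Ccnb1, cyclin B, 97 and 56. Ccnb1 had the lowest ratio of all members, 0.574 (0.406 to 0.806), and that of Cdk1 was 1.01 (0.872 to 1.18). The kinases Aurka, Aurkb, Plk1 and Bub1 and the checkpoint gene Bub1b had ratios from 0.963 to 1.39, each with an interval that included 1, and Birc5 had 238 and 192 UMIs (0.802, 0.660 to 0.974).

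Among the partners of the anaphase-promoting complex, which marks proteins for destruction as chromosomes separate, the activator Cdc20 had 245 and 186 UMIs (ratio 0.755, 0.621 to 0.917) and the enzyme Ube2c 348 and 278 (0.795, 0.676 to 0.933). Both intervals thus lay below 1. The spindle motors Kif11 (260 and 263 UMIs) and Kif23 (566 and 534), the midzone gene Prc1 (282 and 276) and Nusap1 (365 and 322) had intervals that included 1. Tpx2, a spindle assembly factor, was the exception, with 217 and 307 UMIs and the highest ratio of all members, 1.41 (1.18 to 1.68). The centromere genes Cenpa, Cenpe and Cenpf had ratios of 0.971, 0.990 and 0.916, and Diaph3 had 987 and 811 UMIs (0.817, 0.744 to 0.898). Top2a had 533 and 464 UMIs (0.866, 0.763 to 0.982), and Mki67 had a ratio of 0.930 (0.802 to 1.08).

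The listed way to find cycling cells, at least 3 different members with a UMI, picked 2316 WT cells (14.2%, 13.6 to 14.7) and 2275 KO cells (13.4%, 12.9 to 14.0), a ratio of shares of 0.949 (0.895 to 1.01). These were the deep cells of each library. Their median was 16509 and 16874 UMIs, against 4033 and 4167 over all kept cells, and the share rose from 0.389% and 0.0933% of cells with 500 to 1000 UMIs to 97.4% and 96.7% above 50000. Stmn1 was held by 79.0% and 75.7% of them, Pcna by 72.4% and 71.2%, and Mki67 by 3.32% and 3.47%. Cells with exactly 2 members, just outside the rule, numbered 2275 and 2178, and cells with exactly 3 numbered 1096 and 1090.

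The same rule applied at equal depth picked few cells. With each cell thinned to 1500 UMIs, which left out 5369 and 5030 shallower cells, 93 of 10988 WT cells (0.846%) and 90 of 11905 KO cells (0.756%) held at least 3 members, a ratio of 0.893 (0.661 to 1.21). In ependymal or choroid plexus-like cells, a class that should not divide, the share without thinning was 4.89% and 3.22% at median depths of 1386.5 and 1331 UMIs. Endothelial-like cells had 26.5% and 20.7% at median depths of 6414 and 4781.5 UMIs, and 0.334% and 0.496% after thinning. Microglia-like cells that met the rule had 3 other genes at least 2-fold above the remaining microglia-like cells in both libraries, of 13963 tested (0.0215%; 0.0143% were lower), namely the antigen presentation genes H2-Eb1, H2-Aa and Cd74, and none of the genes measured from 5 lists of 146 further cell cycle genes. In monocyte-like cells that met the rule 18 of 36 measured genes of the mitosis list and 6 of 28 of the replication and repair list were higher (1.54% of 8441 other genes were higher and 1.17% lower), and in T cell-like cells 13 of 19 and 5 of 16 (0.902% of 4766 higher and 0.021% lower). Cells of these classes that met the rule included the mitotic-profile cells described next. Measured here means at least 20 UMIs in the cells that met the rule, so genes near 0 in the remaining cells could enter only by being high. In microglia-like cells the label of cycling cells was not borne out by the rule of 3 members, and cells found by it are called by the rule in every class.

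**Figure D1:**
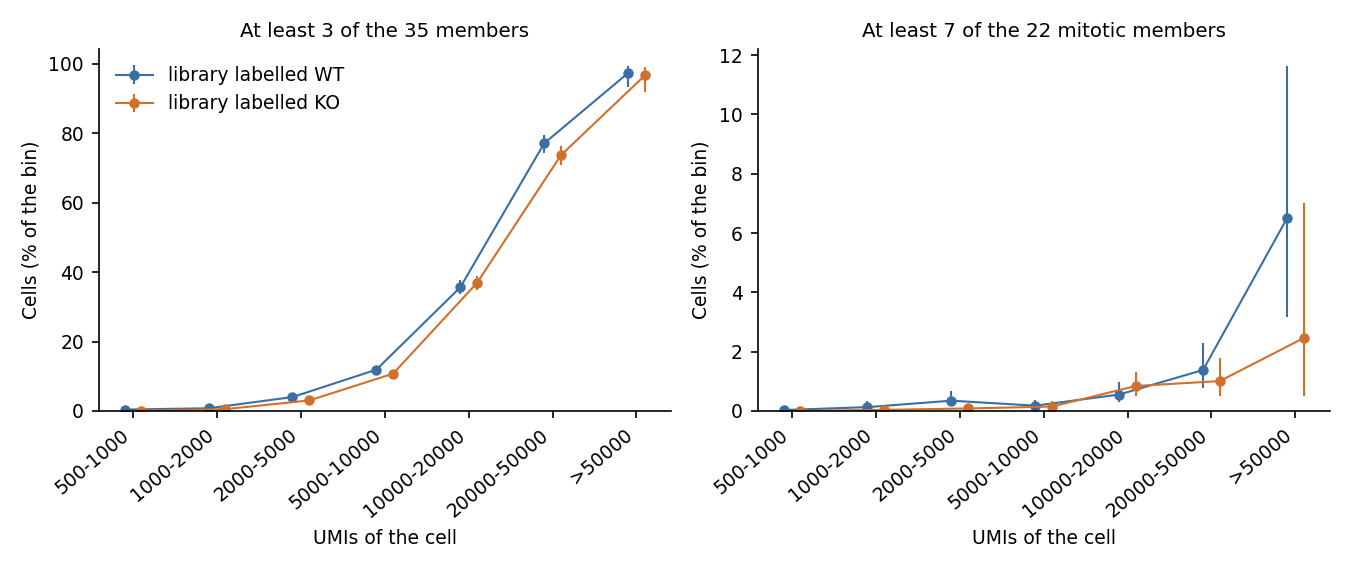
Share of kept cells (y axis, percent with 95% Clopper-Pearson interval) that hold at least 3 of the 35 members (left) or at least 7 of the 22 mitotic members (right), by the UMIs of the cell (x axis), in the WT and KO libraries. The left share climbs from under 1% to over 95% with depth in both libraries. The right share is higher in the deepest bin too, at 6.49% and 2.46% (WT, KO) against 0.0299% and 0% in the shallowest.

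A second group of cells was picked by their mitotic members. Cells with at least 7 of the 22 mitotic members, called mitotic-profile cells here, numbered 57 of 16357 in WT (0.348%, 0.264 to 0.451) and 42 of 16935 in KO (0.248%, 0.179 to 0.335), a ratio of 0.712 (0.466 to 1.08). They too were deep cells, with medians of 15762 and 16420 UMIs against 4021 and 4151 in the other kept cells. The limit of 7 was chosen after the distribution was seen: 13 and 14 cells held 5 mitotic members and 4 and 4 held 6. In WT more cells held exactly 7 than held 6, and more than in KO. The ratio between the libraries therefore depends on the limit. With 10 as the limit there were 35 and 30 cells, and with the added demand that mitotic members make up at least 1000 CPM of the cell there were 42 and 33. When cells were thinned to 1500 UMIs and 3 mitotic members were asked for, the counts were 36 and 43 and the ratio 1.10 (0.692 to 1.77), so the direction between the libraries turned. The 46 genes of the replication and repair list and the 60 of the mitosis list did not choose the cells. Together they had 5031 and 7798 CPM in mitotic-profile cells, against 950 and 937 CPM in cells with no mitotic member.

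These few cells held much of the mitotic RNA and little of the rest. They made up 1.29% and 0.672% of all UMIs in WT and KO, and they held 47.7% and 44.7% of the UMIs of the mitotic members. Of Mki67 they held 83.8% and 81.5%. Of Top2a, the topoisomerase that untangles chromosomes, they held 75.4% and 75.0%, and of Birc5, a subunit of the chromosomal passenger complex, 75.2% and 75.0%. These mitotic shares follow in part from the choice of the cells by the same genes.

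**Figure D2:**
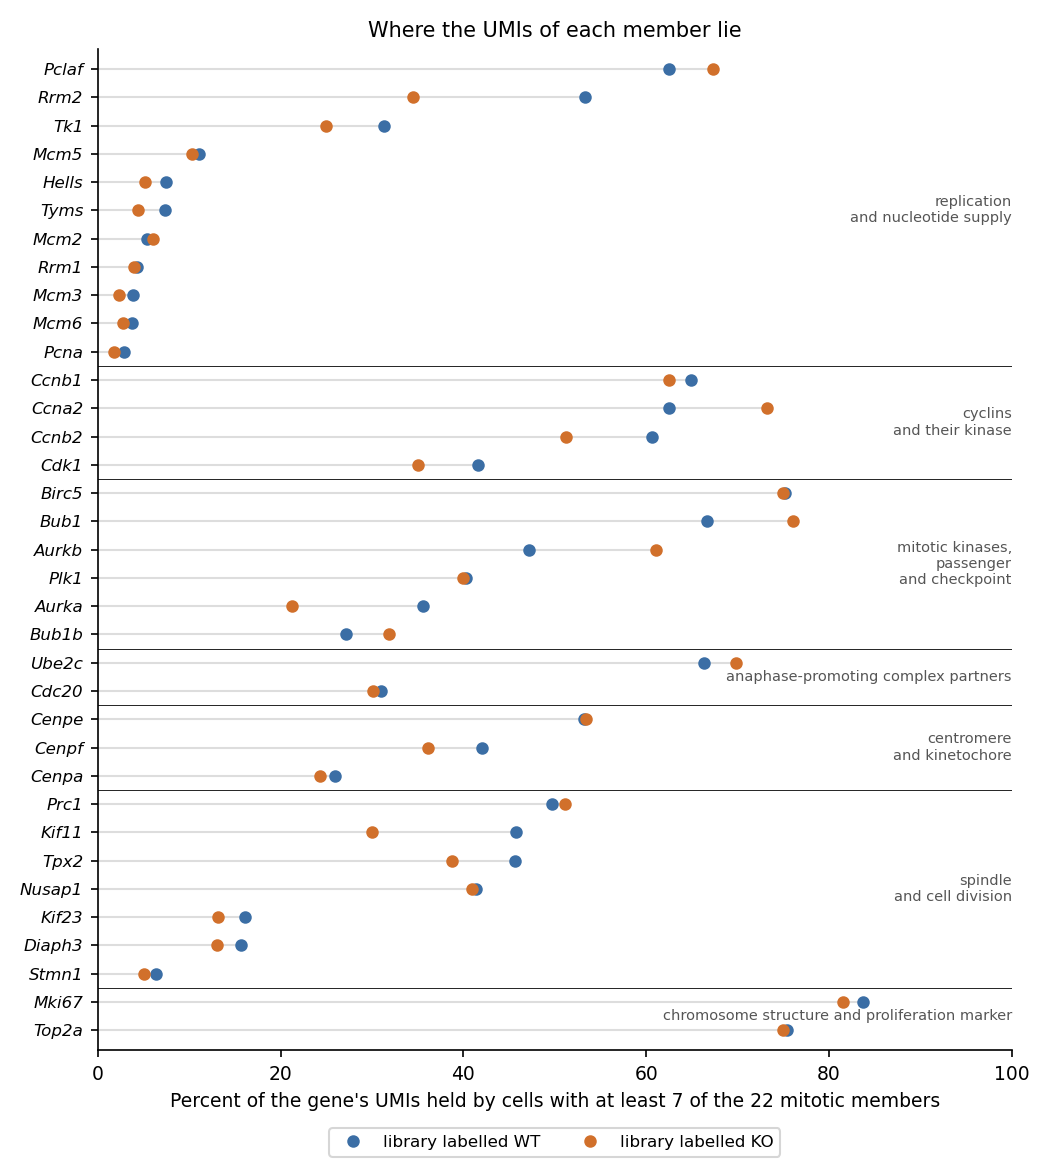
Percent of each member's UMIs (x axis) that lie in mitotic-profile cells, by gene (y axis, grouped by role), in the WT and KO libraries. Mki67, Top2a and Birc5 lie at 75.0% or above in both libraries, and Pcna, Mcm6, Mcm3 and Stmn1 lie below 7%.

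The replication members were not used to choose the cells, and they divided into 2 sorts. Of the 11 as a sum, 6.08% and 4.83% of the UMIs lay in mitotic-profile cells. Pclaf, a partner of the clamp, had 62.5% and 67.3% of its UMIs there, Rrm2, the regulated subunit of ribonucleotide reductase, 53.3% and 34.5%, and Tk1, thymidine kinase, 31.3% and 25%. The others ran from 1.80% for Pcna in the KO library to 11.1% for Mcm5 in the WT library. Outside mitotic-profile cells Pcna still had 56.1 and 50.5 CPM and Mcm3 15.9 and 16.4 CPM. Stmn1 had 6.35% and 5.03% of its UMIs in mitotic-profile cells and was present in nearly every one of them, in 52 of 57 and 41 of 42.

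Stmn1 varied by cell class in another order than the mitotic members. It was at 154 and 153 CPM in endothelial-like cells, in which no mitotic-profile cell was found, at 155 and 97.6 CPM in astrocyte-like cells, and at 40.1 and 31.0 CPM in microglia-like cells. Mki67 in endothelial-like cells was at 1 and 2 UMIs in all. Diaph3 was at 32.1 and 18.7 CPM in astrocyte-like cells and 1.2 and 1.09 CPM in endothelial-like cells.

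By cluster, all mitotic-profile cells that lay in a named class lay in immune classes. Microglia-like cells held 21 of 3611 (0.582%) and 16 of 4275 (0.374%). CNS-associated macrophage-like cells, a class named for the macrophages of the brain's borders, held 7 of 630 (1.11%) and 5 of 999 (0.501%). Of these, 5 and 4 lay in cluster 21, with H2-Eb1 and H2-Aa as leading genes. The remaining cells of the class also carry microglial markers, at 10646 and 13969 CPM. At equal depth, 1500 UMIs a cell, the direction was opposite in this class, with 3 mitotic members in 2 of 556 (0.360%) and 11 of 915 (1.2%). Monocyte-like cells held 6 of 123 (4.88%, 1.81 to 10.3) and 11 of 138 (7.97%, 4.05 to 13.8), and neutrophil-like cells 6 of 177 (3.39%) and 4 of 87 (4.60%). T cell-like cells held 4 of 194 and 4 of 235, and B cell-like cells 1 of 143 and 1 of 75. For each of these classes the interval of the ratio between the libraries included 1, for microglia-like cells 0.644 (0.314 to 1.29) and for monocyte-like cells 1.63 (0.554 to 5.38).

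No mitotic-profile cell was found in 7 other classes. Of endothelial-like cells 0 of 1851 and 0 of 1858 qualified, which allows a share of up to 0.162% and 0.161%. The limits were 0.221% and 0.224% for mural-like cells, 0.418% and 0.289% for astrocyte-like cells and 0.431% and 0.236% for ependymal or choroid plexus-like cells. Fibroblast-like, oligodendrocyte-like and platelet-like cells had none either, with limits between 1.06% and 10.7% because those classes are small. These limits also count shallow cells. Of all kept cells with 500 to 1000 UMIs, 1 of 3339 and 0 of 3214 qualified. Under 1500 UMIs lay 507 of 718 and 645 of 1038 astrocyte-like cells. So did 381 of 696 and 704 of 1272 ependymal or choroid plexus-like cells. Thinned to 1500 UMIs, no deeper cell of both classes held 3 mitotic members, with limits of 1.42% and 0.763%, and 0.952% and 0.528%. That rule picked 1 WT endothelial-like and 1 KO mural-like cell. Unnamed clusters held 12 mitotic-profile cells in WT and 1 in KO. Of the 12, 7 lay in cluster 3, 3 in cluster 7 and 2 in cluster 11, whose median depths in WT were 709, 1376 and 7317 UMIs. Cluster 11 carried 12 of 12 endothelial markers and was left unnamed because of its leading genes. Its 2 mitotic-profile cells were endothelial-like by their own marker UMIs. The limit given for endothelial-like cells thus covers the named class only. Between the libraries the share in unnamed clusters had a ratio of 0.100 (0.00235 to 0.679).

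**Figure D3:**
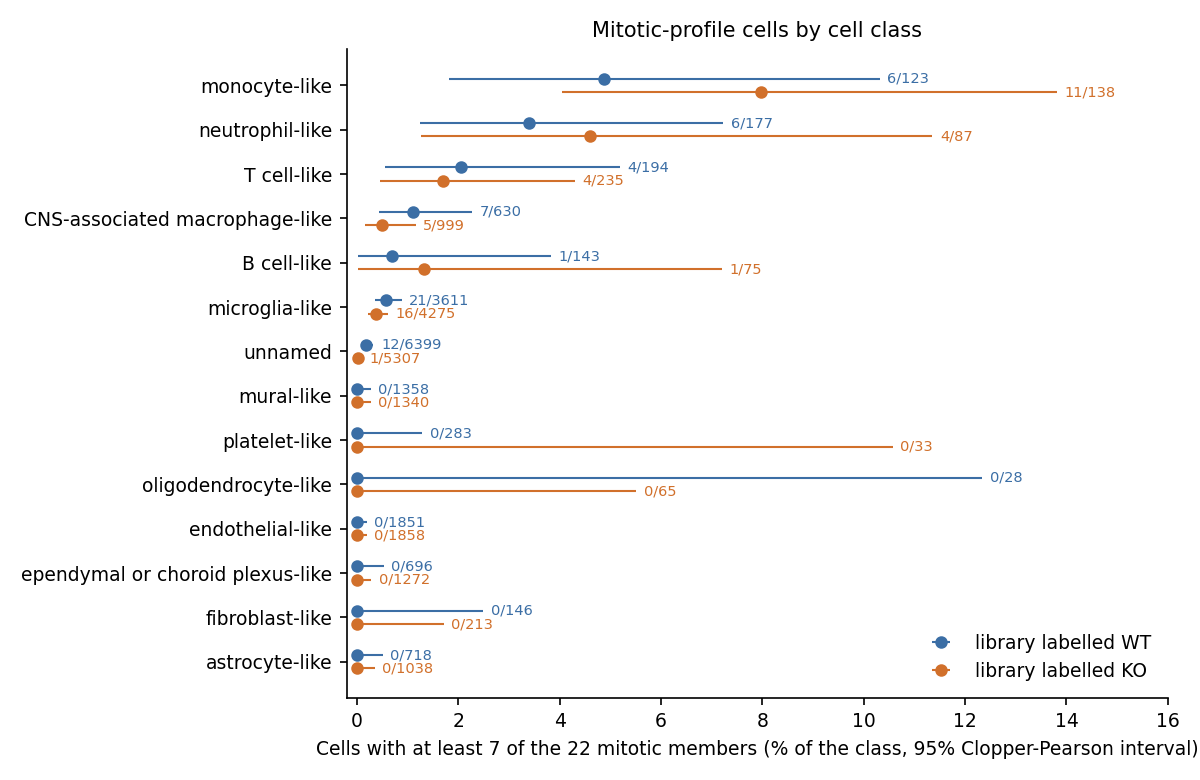
Share of mitotic-profile cells (x axis, percent of the class with 95% Clopper-Pearson interval) by cell class (y axis) in the WT and KO libraries, with the number of cells over the class size beside each point. Monocyte-like and neutrophil-like cells have the highest shares, and the intervals of the libraries overlap in every named class.

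The names of these cells hold to different degrees. By the marker UMIs of the cell itself, the class was that of the cluster for 19 of 21 and 15 of 16 microglia-like cells, 2 of 6 and 8 of 11 monocyte-like cells, and 1 of 7 and 1 of 5 CNS-associated macrophage-like cells. The deepest of the 11 KO monocyte-like cells, with 59477 UMIs and 162 mitotic UMIs, was endothelial-like by its own markers. In WT 10 of the cells had at least 50000 UMIs, 6 of them microglia-like, and in KO 3 did. The median doublet score was 0.154 and 0.185 in mitotic-profile cells against 0.129 and 0.124 over all kept cells. How far pairs of cells in 1 droplet contribute was not tested.

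Mitotic-profile cells carried replication and mitotic members in varied proportion. The mitotic UMIs per cell ran from 9 to 301 with a median of 22 in WT, and from 9 to 225 with a median of 44.5 in KO. The replication UMIs ran from 0 to 81 (median 9) and from 1 to 49 (median 14.5). More mitotic than replication UMIs were found in 44 of 57 and 37 of 42 cells, and more replication UMIs in 12 and 5. The WT monocyte-like cells split evenly, 3 against 3, and the KO ones 1 against 10. Since mitotic members chose the cells, cells that only replicate their DNA were not sought.

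**Figure D4:**
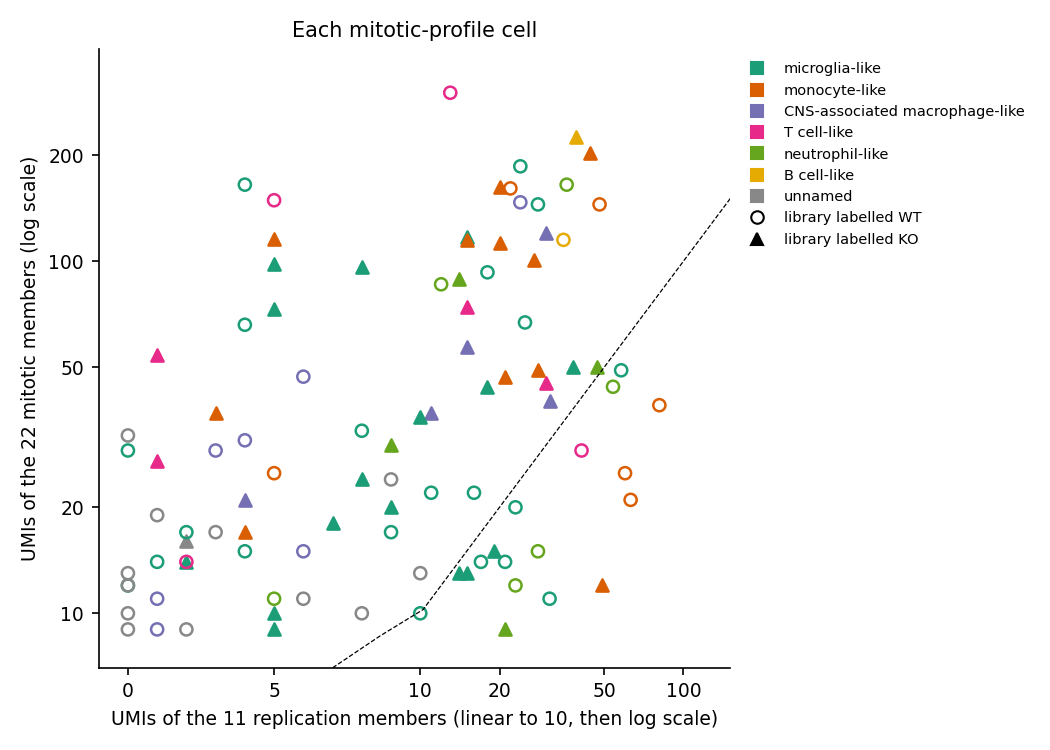
UMIs of the 22 mitotic members (y axis, log scale) against UMIs of the 11 replication members (x axis, linear to 10 and log beyond) in each mitotic-profile cell. Colours give the class, open circles the WT library, filled triangles the KO library, and the dashed line equal UMIs. Most cells lie above the line, and the highest is a WT T cell-like cell with 301 mitotic UMIs.

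Within microglia-like cells the mitotic-profile cells differed from the others also in genes that did not choose them. The replication members summed to 412 and 503 CPM in them, against 135 and 120 CPM in the other microglia-like cells. Tyms, thymidylate synthase, was at 55.1 and 66 CPM against 12.3 and 11.5, and Pclaf at 45.9 and 57.8 CPM against 0.806 and 0.559. Stmn1 was at 382 and 355 CPM against 33.5 and 28.3. Of 7174 other genes with at least 20 UMIs in the mitotic-profile cells, 118 were at least 2-fold higher in both libraries (1.64%, on log2(CPM + 10)). Genes near 0 in the other cells pass that filter only by being high, so the count is a description in this and every other class. Among 16112 genes with at least 20 UMIs in the other microglia-like cells, a filter chosen after the values were seen, 117 were higher (0.726%) and 3 lower (0.0186%). The leading ones of the 118 were the histone genes Hist1h2ap (log2 ratio 3.27 and 2.79) and Hist1h2ae (2.77 and 2.96), the noncoding RNA Lockd (2.79 and 3.18), the passenger complex gene Cdca8 (2.91 and 2.62) and the condensin gene Smc4 (2.48 and 3.11). They were followed by Cdca3, the kinetochore genes Knl1, Ndc80 and Spc24, Hmmr, the cytokinesis genes Racgap1 and Ect2, H2afx, the condensin gene Smc2 and the kinesin Kif15, with log2 ratios between 2.15 and 3.09.

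Many other genes of the mitosis list were higher in those microglia-like cells. Of 46 genes of that list with at least 20 UMIs in the other cells 36 were higher, with median log2 ratios of 1.54 and 2.01 against -0.03 and -0.04 over all genes tested. Of the replication and repair list 13 of 44 were higher, and of the histone, tubulin and chromatin list 9 of 13. Among G1 cyclins, kinases and E2F factors 2 of 10 were higher, E2f2 and Ccne2, the gene of cyclin E2, while Ccnd3, a D-type cyclin, was at 726 and 575 CPM against 758 and 605. Among inhibitors 2 of 14 were higher: Cdkn1a, which encodes p21, was at 97.1 and 173 CPM against 32.4 and 29.1, and Cdkn2c at 38.1 and 38.5 against 4.53 and 4.35. Cdkn1b, which encodes p27, was at 45.9 and 33.0 CPM against 48.7 and 44.6, and Cdkn2d at 23.6 and 22 against 8.03 and 8.75. Cdkn1c (7 and 7 UMIs), Cdkn2a (8 and 9) and Cdkn2b (0 and 0) had under 20 UMIs in the mitotic-profile cells.

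The microglial marker P2ry12 was found in all of these cells. P2ry12, a purine receptor of resting microglia, had 1735 and 1634 CPM in them against 1973 and 1871 CPM in the others, and was found in 21 of 21 and 16 of 16 cells. Of the 7174 genes 2 were at least 2-fold lower in both libraries (0.0279%): Spp1, the gene of osteopontin (49.9 and 30.3 CPM against 154 and 91.6), and Ptgds (13.1 and 30.3 against 49.96 and 75.5). By cluster the shares were 0.594% and 0.522% in cluster 6, 1.24% and 0.985% in cluster 20, and 0.234% and 0% (3 of 1282 and 0 of 1751) in cluster 2. Cluster 20 is the deepest, with medians of 12278 and 9920 UMIs, cluster 6 had 8955.5 and 7840, and cluster 2 had 6183.5 and 5571.

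Some mitotic-profile cells of the neutrophil-like and monocyte-like classes carried Elane, Mpo and Prtn3, genes of early myeloid precursors. The genes named for these and the other classes outside microglia were chosen after their values were seen. The neutrophil-like class had been set down as one without division, and it did hold mitotic-profile cells. Of 3274 genes 98 were 2-fold higher in them in both libraries (2.99%) and 2.05% lower. Elane, the gene of neutrophil elastase, had 522 UMIs in 3 of 6 mitotic-profile neutrophil-like cells in WT and 1071 UMIs in 3 of 4 in KO, against 1 UMI in the other 171 cells and 0 in the other 83. Mpo, myeloperoxidase, had 182 and 379 UMIs there, against 0 and 0. The neutrophil markers went both ways. Retnlg was at 932 and 0 CPM against 7379 and 9934 CPM, and Mmp8, a collagenase, at 66.6 and 0 against 573 and 852. Ngp was higher, at 4680 and 7696 CPM against 2613 and 4886, and so was Camp, at 5761 and 14434 against 2329 and 4412. All 12 neutrophil markers summed to 76382 and 133120 CPM against 89150 and 133350. Microglial markers (12 of 12 and 11 of 12 detected) summed to 14388 and 2819 CPM in these cells and to 12068 and 12802 CPM in the other neutrophil-like cells, and their part in these levels was not tested. Of the 6 WT cells 3 had at least 50000 UMIs, and 1 of those 3 was microglia-like by its own markers.

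In mitotic-profile monocyte-like cells 297 of 3399 genes were higher (8.74%) and 4.91% lower. Prtn3, the gene of proteinase 3, was found in 5 of 6 and 10 of 11 mitotic-profile cells, at 4140 and 1521 CPM against 15.3 and 110 CPM in the others. Elane and Mpo were each found in 4 of 6 and 6 of 11. The neutrophil markers Ngp and Camp had 0 UMIs in the mitotic-profile cells of this class in both libraries. Ly6c2, a marker of classical monocytes, was at 1563 and 4241 CPM against 220 and 1150, and in 11 of 11 KO cells. The lipid carrier gene Apoe was at 189 and 614 CPM against 3544 and 4468. The microglial markers were lower too, at 1211 and 1056 CPM against 7925 and 8678. The mitotic-profile T cell-like cells carried T cell markers at 7172 and 6749 CPM, near the 5899 and 5770 CPM of the other T cell-like cells. Cd8a was found in 1 of 4 and 2 of 4 of them, against 93 of 190 and 94 of 231 of the others. Cd4 was found in 2 of 4 and 1 of 4, against 21 of 190 and 28 of 231. In mitotic-profile T cell-like cells 66 of 782 genes were higher (8.44%) and 0.639% lower, Cdca8, Hmmr and the CDK subunit gene Cks1b leading. The chemokine gene Ccl5 was at 483 and 1343 CPM against 6149 and 5314. In mitotic-profile CNS-associated macrophage-like cells 74 of 1961 genes were higher (3.77%) and 0.51% lower, led by Racgap1 (128 and 211 CPM against 1.91 and 1.34), and the border macrophage marker F13a1 was at 161 and 317 CPM against 938 and 664. All 12 border macrophage markers summed to 1754 and 3105 CPM against 5645 and 3997. The monocyte marker Ccr2 was at 215 and 151 CPM against 71.4 and 54.5, and H2-Aa at 3347 and 2683 against 2044 and 1695. The class name of these cells is thus that of their clusters. The KO cell in the B cell-like class was plasma cell-like by its own markers.

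Between the libraries, KO microglia-like cells had slightly less of most members. All 35 members had at least 20 UMIs over both libraries, and on the scale log2((CPM KO + 1)/(CPM WT + 1)) 2 were at least 1.5-fold lower and none higher, where 1.11% of 16211 genes were lower and 1.30% higher. The median was -0.24, against 0.0068 over all genes tested. Birc5 had 84 and 43 UMIs, or 2.08 and 0.992 CPM (ratio 0.478, 0.323 to 0.698), and Ube2c, the ubiquitin-conjugating enzyme of the anaphase-promoting complex, 91 and 50 UMIs, or 2.25 and 1.15 CPM (0.513, 0.356 to 0.732). Top2a had 191 and 125 UMIs, or 4.72 and 2.88 CPM (0.611, 0.484 to 0.770), which missed the limit. The replication members had a median of -0.13, the highest being Rrm2 (16 and 22 UMIs, log2 ratio 0.11). Mki67, at 124 and 96 UMIs, had a log2 ratio of -0.34, and Stmn1, at 1622 and 1344 UMIs, -0.36.

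Mitotic-profile cells, 21 and 16 in number, held 57.9% and 46.3% of the mitotic UMIs of this class. Without them the median over the 31 members still measured was -0.09 and none was 1.5-fold lower. Outside mitotic-profile cells the mitotic members summed to 18.7 and 17.6 CPM, a ratio of 0.939 (0.848 to 1.04), and outside them over all kept cells to 27.4 and 27.0 CPM, a ratio of 0.988 (0.940 to 1.04). In neutrophil-like cells the sum outside them was 55.2 and 25.9 CPM, a ratio of 0.470 (0.296 to 0.720). Of the fixed lists in microglia-like cells, 4 of 57 measured mitotic genes were lower and none higher: Pbk, a mitotic kinase (58 and 13 UMIs), Ckap2l (812 and 454), Ect2 (100 and 51) and Cdca8 (84 and 45). None of the replication and repair genes (45 measured), G1 genes (13), inhibitors (14) or histone, tubulin and chromatin genes (13) passed 1.5-fold either way. Cdkn1a was at 33.6 and 30.3 CPM, Cdkn1b at 48.6 and 44.5, Cdkn1c at 15.8 and 16, Cdkn2a at 2.72 and 2.47, Cdkn2b at 1.51 and 1.2, Cdkn2c at 5.16 and 4.64 and Cdkn2d at 8.33 and 8.86. At the ends of the lists stood Cdt1 (log2 ratio -0.40) and Usp1 (0.30), E2f1 (-0.38) and Ccnd1 (0.24), Tuba1c (-0.37) and Tubb4b (0.17), and Pttg1 (0.37), the gene of securin.

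Monocyte-like cells differed the other way. Of 32 members measured 17 were at least 1.5-fold higher in KO and 2 lower, where 8.68% of 10086 genes were higher and 8.42% lower, and the median was 0.61 against -0.02 over all genes. The 3 centromere genes led: Cenpf had 13 and 51 UMIs, or 8.55 and 36.1 CPM (log2 ratio 1.96), Cenpe 15 and 57 UMIs (1.93) and Cenpa 22 and 80 UMIs (1.90). Of the 19 mitotic members measured 15 were higher and none lower. Of the 11 replication members 2 were higher and 2 lower, the latter being Rrm2 (36 and 16 UMIs, log2 ratio -1.0) and Mcm6 (42 and 22, -0.79). The 6 and 11 mitotic-profile cells held 83.9% and 94.2% of the mitotic UMIs of the class, and without them 7 members were measured, with a median of -0.10, 1 higher and 1 lower.

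KO T cell-like cells had less of the mitotic members, and the direction turned without 1 WT cell. Of 27 members measured 11 were lower and none higher, where 6.41% of 8950 genes were lower and 9.61% higher, and the median was -0.54 against 0.04. Ube2c had 63 and 15 UMIs, or 49.8 and 14.0 CPM (log2 ratio -1.76), and Ccnb2, a B-type cyclin, 34 and 11 UMIs (-1.31). A single WT cell of 38361 UMIs held 301 of the 574 mitotic UMIs of its class. Without that cell, left out after the values were seen, 3 of 24 members were higher and none lower, and the median was 0.10. The replication members had a median of -0.0032 in this class.

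CNS-associated macrophage-like cells, which the study title names, had 3 of 30 measured members higher and 4 lower, where 2.94% of 13150 genes were higher and 5.79% lower, with a median of -0.17. Pclaf had 10 and 39 UMIs, or 1.69 and 4.0 CPM (log2 ratio 0.89), and Aurka, a spindle pole kinase, 5 and 23 (0.86), while Cenpf had 68 and 60 UMIs, or 11.5 and 6.16 CPM (-0.81), and Ube2c 29 and 23 (-0.81). The direction was thus mixed among mitotic members. In endothelial-like cells 18 members were measured and none passed 1.5-fold (background 2.61% higher and 1.65% lower), with a median of -0.05 and both libraries at 308 CPM for the sum of all members. In neutrophil-like cells 2 of 25 were higher (background 8.29%) and 5 lower (17.6%). The neutrophil-like members included Hells, at 27 and 0 UMIs, and Mki67, at 47 and 12 UMIs (18.1 and 11.1 CPM).

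In the remaining classes few members were measured. Among B cell-like cells 9 of 14 were higher (background 10.8%) and none lower (19.2%). The 1 mitotic-profile cell of each library held 115 of 173 and 225 of 252 mitotic UMIs of that class, and outside it the mitotic members summed to 62.4 and 62.3 CPM (ratio 0.998, 0.608 to 1.6). Among astrocyte-like cells none of 8 was higher (8.03%) and 3 were lower (6.14%), namely Hells, Diaph3 and Stmn1. Among ependymal or choroid plexus-like cells 1 of 9 was higher (6.85%) and 1 lower (5.91%), and among mural-like cells 1 of 11 was higher (4.67%) and 1 lower (3.19%). The higher gene was Tpx2 in both, with 4 and 16 UMIs and with 10 and 16 UMIs. None of 4 passed in fibroblast-like cells (9.34% higher and 9.61% lower).

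**Figure D5:**
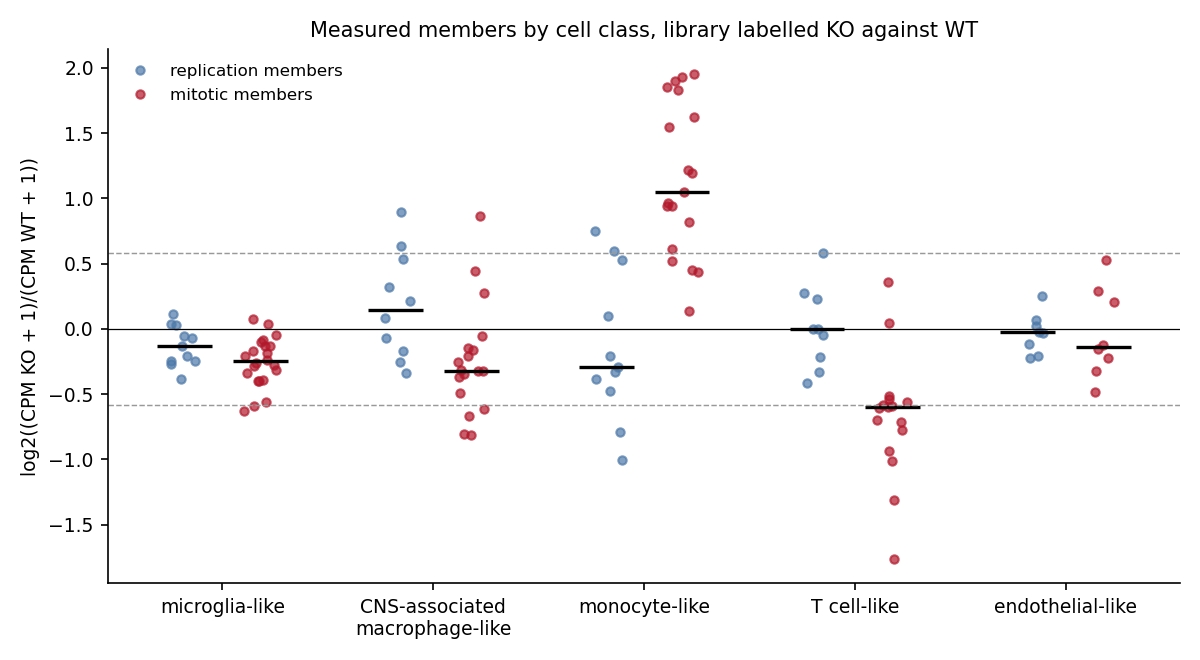
Log2 ratio of the KO library to the WT library (y axis, log2((CPM KO + 1)/(CPM WT + 1))) of each measured member in 5 cell classes (x axis), replication members in blue and mitotic members in red, with black bars at the medians and dashed lines at 1.5-fold. The mitotic members lie above 0 in monocyte-like cells and mostly below 0 in T cell-like and microglia-like cells.

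Over all kept cells the members summed to 285 CPM in WT (282 to 288) and 255 CPM in KO (252 to 258), a ratio of 0.893 (0.879 to 0.908). The mitotic members summed to 51.7 and 48.5 CPM (0.939, 0.906 to 0.974) and the replication members to 133 and 123 CPM (0.925, 0.904 to 0.947). By role the lowest ratio was that of the anaphase-promoting complex partners, 0.778 (0.688 to 0.880), and the highest that of the mitotic kinases, passenger and checkpoint genes, 1.0 (0.902 to 1.11). Stmn1, with 10667 of 32935 and 8889 of 29584 UMIs, weighed most in the sum over all members, and its ratio was 0.829 (0.806 to 0.853).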

How the data were processed

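The values are UMI counts per gene and cell barcode, deposited as 1 matrix per library. Per the file headers, these counts were written by Cell Ranger 7.0.1. STAR, Seurat 3.1.1 and the builds GRCm38 and mm10 are named, without a role, per the submitters' processing notes. The matrices held 18228 and 19159 barcodes with 127429919 and 131196245 UMIs (WT, KO). Barcodes with at least 300 genes, 500 UMIs and at most 10% mitochondrial UMIs were kept. Doublets were called with Scrublet, which marked 1.47% and 4.10% where 14.6% and 15.3% were expected from the loading, so doublets may remain. This left 16357 and 16935 cells with medians of 4033 and 4167 UMIs. Cells were clustered (scanpy 1.11.5, python-igraph 0.11.9, 2000 variable genes, 30 components, Leiden resolution 1) and clusters named from at least 3 detected markers of fixed lists, so class names are rebuilt ones. Python 3.11.15, numpy 2.4.6, scipy 1.17.1, pandas 2.3.3, scikit-learn 1.9.0 and matplotlib 3.10.9 were used.

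Counts were summed per library and class and divided by the class total (CPM). A gene was measured with at least 20 UMIs over both libraries and called at 1.5-fold on log2(CPM + 1). Between mitotic-profile cells, or cells holding 3 members, and the rest of a class, a gene needed at least 20 UMIs inside those cells over both libraries and was called at 2-fold in both on log2(CPM + 10). In microglia-like cells a filter of 20 UMIs in the rest was added after seeing the data. Shares have exact binomial intervals, sums exact Poisson intervals and ratios exact conditional ones, and the limit for a count of 0 is 3 counts. The calling step was tested on simulated data in which each UMI was drawn alone. That does not cover members whose UMIs gather in few cells. All 35 members were described, with those most and least often held in each role and those at the ends of the ratios in full. From each pathway list up to 2 genes at each end and every inhibitor were named, and from other genes the 15 with the largest change in microglia-like mitotic-profile cells. The members and lists were chosen with earlier results of these data known. Mitotic-profile cells and alternatives on them were defined after seeing the data.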

Additional observations from a re-analysis of the deposited data

Results flagged for a closer look

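The median log2 ratio of KO to WT over the measured mitotic members was 1.05 in monocyte-like cells and -0.60 in T cell-like cells. Both values rest on few cells: over all measured members the median was -0.10 in monocyte-like cells without mitotic-profile cells, and 0.10 in T cell-like cells without 1 WT cell that held 301 of 574 mitotic UMIs. With 1 library per group this difference between the classes was not tested.

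Among the 4095 barcodes removed by the filters or as doublets, which entered no comparison, 5 had at least 7 mitotic members (0.122%), against 99 of 33292 kept cells (0.297%).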

How the results depend on the processing

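No paired analysis was possible because each group is 1 library and its replicate number is only its place in accession order. Leaving out a library would leave a group empty. Of 296 values under other settings 203 stayed within the spread set for them, 88 moved and 5 turned. The causes were not tested unless a setting's own construction shows them.

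The share of cells with at least 3 members moved with every change to the rule. It was 28.1% and 26.3% (WT, KO) with at least 2 members, 4.29% and 3.71% with at least 5 (ratio 0.865), and 0.966% and 0.856% with mitotic members only (0.886). Thinned to 1000 UMIs it was 0.461% and 0.401% (0.870), to 1500 UMIs 0.846% and 0.756% (0.893), and to 3000 UMIs 2.82% and 2.25% (0.799). The stricter filter on cells gave 18.8% and 17.5%. In microglia-like cells the same settings gave 39.1% and 33.6% with 2 members, 5.54% and 3.93% with 5 (0.710), 1.25% and 0.982% with mitotic members only (0.788), 0.511% and 0.260% thinned to 1000 (0.509), 0.788% and 0.607% thinned to 1500 (0.770), and 1.83% and 1.42% thinned to 3000 (0.777). Classes from each cell's own marker UMIs gave 19.4% in KO and a ratio of 1.00.

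Mitotic-profile cells in WT fell to 35 with at least 10 mitotic members, and to 36 with at least 3 after thinning to 1500 UMIs, where the ratio was 1.10. In their microglia-like cells 40 of 46 genes of the mitosis list and 1 of 6 of the G1 list were higher with the filter on UMIs inside them, and 36 of 46 and 2 of 10 with the filter on UMIs in the other cells.

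In microglia-like cells 0 members were lower with a pseudocount of 5 CPM (median -0.11) or 10 CPM (-0.061), at 2-fold, without cells of at least 3 members (21 measured, median -0.0031) and without mitotic-profile cells (median -0.092), and 1 by own markers. In monocyte-like cells 11 were higher with at least 50 UMIs, 10 higher and 1 lower at 2-fold, and 1 lower with 10 CPM. Without cells of at least 3 members 2 were measured and 0 passed either way (median 0.093), without mitotic-profile cells 1 was higher and 1 lower and the median turned to -0.10, and by own markers the median was 1.5. In T cell-like cells 5 were lower with 5 CPM, 10 CPM or at least 50 UMIs, 3 at 2-fold, 1 without cells of at least 3 members and 0 without mitotic-profile cells. By own markers 2 were higher and the median was -0.86. Without the WT cell of most mitotic UMIs 3 were higher, 0 lower, and the median turned to 0.10. The median also turned to 0.055 in CNS-associated macrophage-like cells by own markers, and in endothelial-like cells to 0.024 without cells of at least 3 members and 0.068 by own markers. Depth limits any count of cells that divide: cells under 1500 UMIs, 5369 and 5030 in number, could not be judged at equal depth.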
